A study of Mus musculus with 2 samples.

Results

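The genes described here are selective autophagy and mitophagy receptors, the proteins that pick out cargo for autophagy. Of 9 genes listed (Sqstm1, Nbr1, Optn, Tax1bp1, Calcoco1, Calcoco2, Bnip3, Bnip3l and Fundc1), 7 had a probe set that the platform annotation assigns to that gene alone, out of 18193 genes with such a probe set. These 7 genes were read by 15 probe sets, of which 13 passed the signal filter (a mean MAS5 signal over both arrays of at least 76.35, the median of all probe sets). Optn, which no probe set names alone in the annotation used, is not analysed here, and Bnip3l was read only by probe sets shared with its pseudogene, which are described separately. The list was chosen by the kind of protein and with the signals of Calcoco2 and Bnip3 on these arrays already known, so their values are a description and carry no test.

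RNA came from embryoid bodies, the clusters that embryonic stem cells form when they leave self-renewal. They were grown as hanging drops from the feeder-free mouse stem cell line CGR8 (strain 129). The control group, 1 array, had plain differentiation medium. The FGF10 group, also 1 array, had the same medium with recombinant FGF10, a secreted growth factor, at 100 ng/ml. The sample labels give day 2, and the series' own design note has RNA taken 24 h after FGF10 was given to embryoid bodies of that age, so the exact stage is ambiguous. With 1 array in each group there is no replicate check and no p-value, and each ratio below compares these arrays, not the conditions at large. Ratios are log2 of FGF10 over control, centred on the median probe set, and a gene takes the value of its brightest probe set that passed the filter. The median signal was 75.7 in the control and 77.9 with FGF10.

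Autophagy encloses cytoplasm in a double membrane that fuses with the lysosome. Selective receptors link a cargo to that membrane by binding lipid-anchored proteins of the Atg8 family (LC3 and GABARAP) through a short LC3-interacting motif. Sqstm1 (p62), Nbr1, Optn and Tax1bp1 are soluble adaptors that also bind ubiquitin on the cargo, and Calcoco2 (NDP52) is a soluble adaptor as well. Bnip3, Bnip3l (Nix) and Fundc1 are instead anchored in the mitochondrial outer membrane and recruit the autophagic membrane directly. Bnip3 is a well known target of the hypoxia-inducible factor HIF, which binds DNA at the core letters ACGTG. The variant core that starts with G instead of A (GCGTG) is bound as well.

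Of the 7 receptor genes, Bnip3 was at least 1.5-fold higher with FGF10, Calcoco2 was at least 1.5-fold lower, and the other 5 lay within 1.5-fold. Over all 11122 genes measured, the share past 1.5-fold was 5.41% upward and 4.86% downward. Past 2-fold, these shares were 1.32% and 1.29%, and Calcoco2 alone of the receptors lay there. The 7 genes had a median log2 ratio of -0.039, and all genes measured had a median of -0.027. Because the values of Bnip3 and Calcoco2 took part in the choice of genes, nothing is read from the counts.

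**Figure D1:**
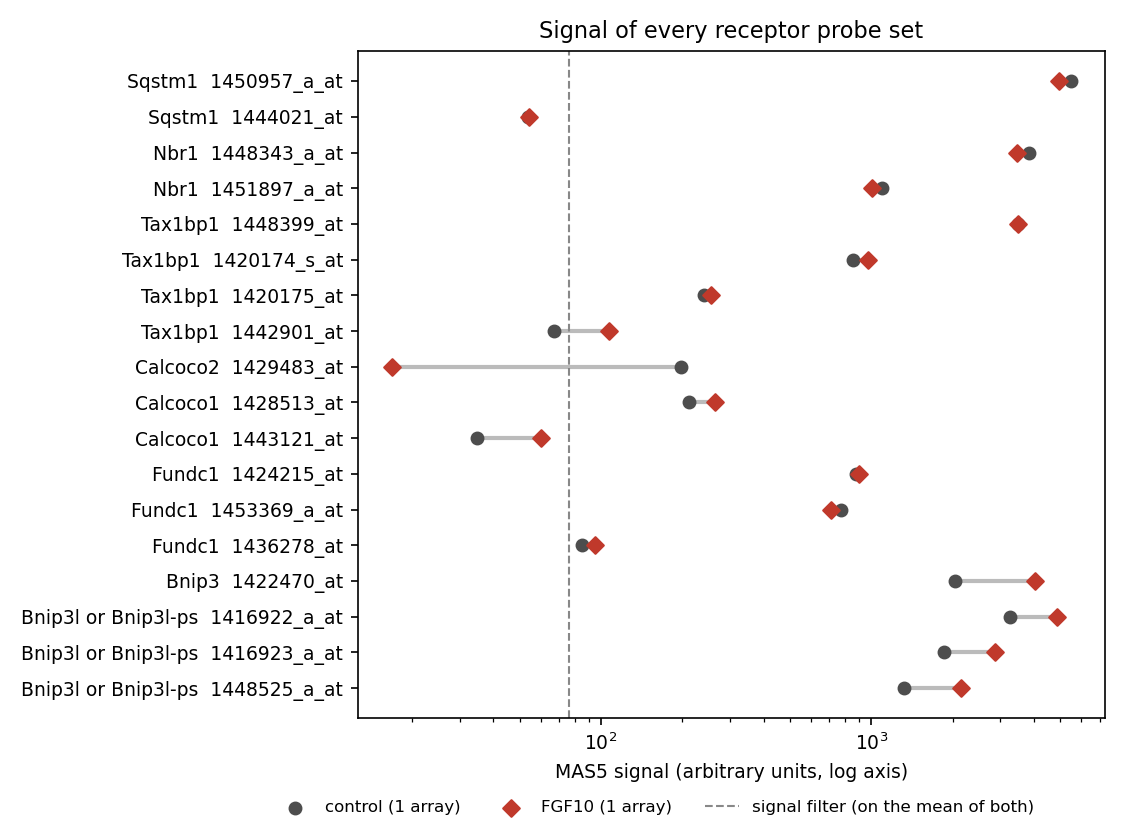
MAS5 signal on a log axis (arbitrary units) for each of the 18 probe sets of the receptors, including 3 shared by Bnip3l and its pseudogene, on the control array (grey circles) and the FGF10 array (red diamonds). The dashed line is the signal filter of 76.35, which applies to the mean of both arrays. Bnip3 and the shared Bnip3l probe sets lie further right with FGF10, Calcoco2 drops from 198.2 to 16.8, and the brightest probe sets of Sqstm1, Nbr1, Tax1bp1 and Fundc1 nearly coincide.

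Bnip3, a mitophagy receptor with a BH3-like domain, had a signal of 2035.3 in the control and 4041.3 with FGF10. This is a log2 ratio of 0.96 (1.94-fold). The gene was read by 1 probe set (1422470_at), so no other probe set bears on the value. The probe set is a bright one. Of the 1126 probe sets of like brightness (the 18th of 20 signal bins, 2386.25 to 3592.85), 1.95% were past 1.5-fold upward. Bnip3 was chosen with its value known, so this share describes the bin and is no test of the gene.

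The promoter of Bnip3 is shown because the gene is a textbook HIF target and was higher together with other such targets, and that of Sqstm1 as a receptor gene that stayed within 1.5-fold. Each run is the 250 bases before the RefSeq start in GRCm38.p6, 5′ to 3′ on the gene's own minus strand, and capitals mark ACGTG on either strand. Bnip3 is at chr7:138909507-138909756 and Sqstm1 at chr11:50210821-50211070.
Bnip3: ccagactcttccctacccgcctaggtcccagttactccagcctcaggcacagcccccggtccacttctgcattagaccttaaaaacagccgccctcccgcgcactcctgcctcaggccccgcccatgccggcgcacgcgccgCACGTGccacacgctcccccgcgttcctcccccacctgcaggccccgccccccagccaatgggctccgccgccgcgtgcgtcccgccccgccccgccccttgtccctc
Sqstm1: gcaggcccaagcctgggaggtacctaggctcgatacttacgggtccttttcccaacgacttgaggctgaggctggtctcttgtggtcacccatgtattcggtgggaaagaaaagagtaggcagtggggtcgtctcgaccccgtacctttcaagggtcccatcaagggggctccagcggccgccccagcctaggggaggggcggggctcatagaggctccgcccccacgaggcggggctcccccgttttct
In the Bnip3 window the matches on both strands overlap and form CACGTG, whose first base lies 108 bases before the start. The window also holds 3 matches to the variant core, 2 of them on the other strand. The Sqstm1 window holds no match to either core. Promoter windows were found for 7 of the 9 listed genes (9 windows in all). ACGTG was present in 3 of these windows, the one of Bnip3, 1 of 2 of Nbr1 and 1 of 2 of Tax1bp1. Nbr1 and Tax1bp1 stayed within 1.5-fold, as Sqstm1 did, so ACGTG was not particular to Bnip3. CACGTG was present in 1 of the 9 windows (11.1%), that of Bnip3. Whether these letters bear on the signals was not tested. The variant core was present in 5 of the 9 windows (55.6%). By comparison 16.6% of all 32851 promoter windows of this length held ACGTG on either strand, 22.1% of the 11641 windows of genes measured here did, and 28.2% and 45.4% held the variant core. CACGTG, which contains the first core on both strands, stood in 6.02% of all windows. Such a match describes the letters in the window and is no evidence of binding.

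Bnip3l, a close relative of Bnip3 that clears mitochondria from maturing red blood cells, cannot be told apart from its pseudogene Bnip3l-ps on these arrays. The probe sets annotated to both gave signals of 3257.7 and 4868.9 (1416922_a_at), 1854.9 and 2862 (1416923_a_at), and 1327.6 and 2146.7 (1448525_a_at) on the control and FGF10 arrays. Their log2 ratios were 0.55, 0.59 and 0.66. All 3 probe sets were higher with FGF10, and 2 of them were past 1.5-fold. The annotation gives the same source sequence for all 3, so they are not independent readings. Among the 19966 probe sets that passed the filter and name 1 gene, 6.68% were that much higher. In the signal bins of the shared probe sets the share was 1.15% (1416922_a_at) and 1.78% (1416923_a_at and 1448525_a_at). These probe sets enter no count of genes.

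Fundc1, a receptor of the mitochondrial outer membrane known for mitophagy under low oxygen, differed little between the arrays. Its brightest probe set (1424215_at) read 878.7 and 899.2, a log2 ratio of -0.0010 after centring. A second one (1453369_a_at) read 770.1 and 711.2 (-0.15), and a dim one (1436278_at) read 85.1 and 95.1 (0.13). The sign thus differed among its probe sets, and the sign of the brightest turned in some of the processing alternatives described with the limits. Fundc1 thus lay within 1.5-fold on every probe set. Bnip3, also anchored in the outer membrane, was higher, but it was chosen with its value known, so the contrast is no finding.

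Sqstm1, which encodes p62, the adaptor that gathers ubiquitinated cargo and also binds Keap1, had signals of 5480.8 in the control and 4944.2 with FGF10 (log2 ratio -0.18). Its other probe set (1444021_at) was below the filter, at 53.5 and 54.2. Nbr1, a larger adaptor with a similar domain layout that acts beside p62, read 3841.9 and 3462.8 on its brightest probe set (-0.18) and 1097.1 and 1008.6 on the other (-0.16). For both genes the brighter probe set was slightly lower with FGF10. The probe sets of the same signal bin had a median log2 ratio of -0.11, and with a loess correction for signal the ratios of Sqstm1 and Nbr1 were -0.073 and -0.101.

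Tax1bp1, an adaptor that also restrains inflammatory signalling, read 3503.8 and 3492.9 on its brightest probe set (1448399_at, log2 ratio -0.039). Its other probe sets gave 857.8 and 976.3 (1420174_s_at, 0.15), 241.1 and 255.4 (1420175_at, 0.049), and 66.8 and 107.5 (1442901_at, 0.65). The probe set at 66.8 and 107.5 was past 1.5-fold, alone of the 4. Its mean of 87.15 lies just above the filter, and in its signal bin 16.2% of probe sets were at least 1.5-fold higher.

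Calcoco2 encodes NDP52, an adaptor best known, in its human form, for clearing bacteria and damaged mitochondria. Its only probe set (1429483_at) read 198.2 in the control and 16.8 with FGF10. The gene thus passed the filter only through the control array. The log2 ratio as computed was -3.59. The FGF10 signal was brighter than 22.4% of the probe sets on that array and lies well under the filter, so neither the size of the ratio nor its rank is known. With signals under 76.35 raised to that value the ratio was -1.41. Its mean signal of 107.5 falls in the 3rd of 20 bins, where 10.0% of probe sets were past 1.5-fold downward and 2.13% past 2-fold. Calcoco2 too was chosen with its value known, so these shares describe the bin only.

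Calcoco1, a relative of Calcoco2 that binds Atg8 proteins and acts in autophagy of the endoplasmic reticulum, did not share its direction. Its brighter probe set (1428513_at) read 211.9 in the control and 265.3 with FGF10 (log2 ratio 0.29). The other (1443121_at) was below the filter on both arrays, at 34.9 and 59.9. Of the 5 soluble proteins measured, Sqstm1, Nbr1, Tax1bp1 and Calcoco1 lay within 1.5-fold on their brightest probe sets. Calcoco2 did not, but its value took part in the choice of genes, so the contrast is no finding.

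**Figure D2:**
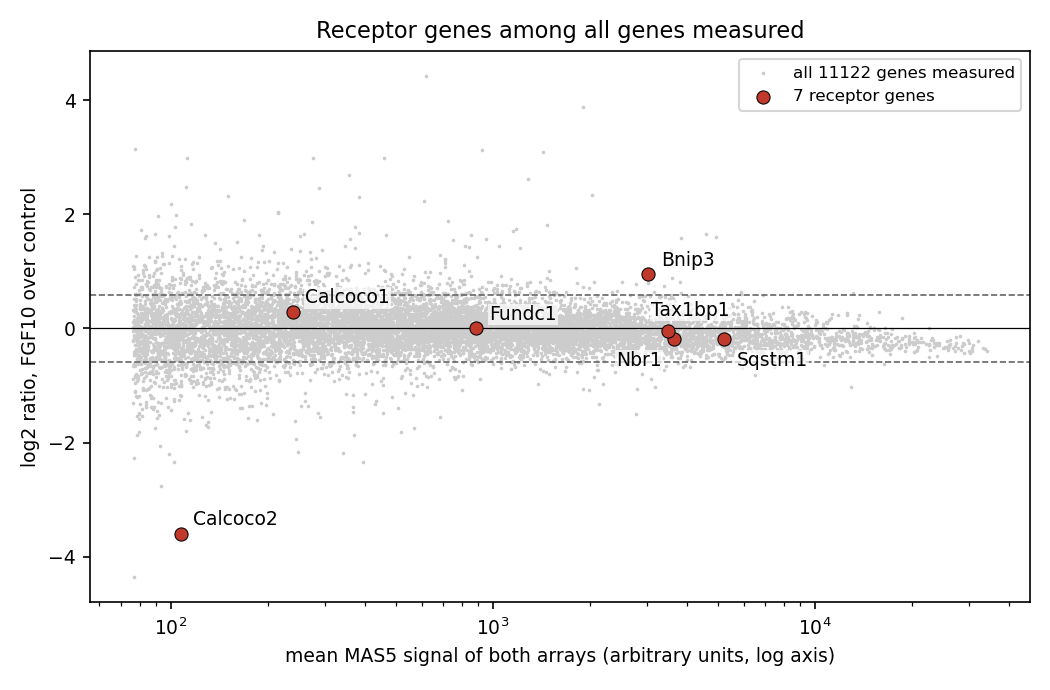
Log2 ratio of FGF10 over control against the mean MAS5 signal of both arrays (log axis, arbitrary units), with 1 grey point for each of the 11122 genes measured and red points for the 7 receptor genes. Dashed lines mark 1.5-fold. Bnip3 is plotted at 0.96 and Calcoco2 at -3.59 (-1.41 with dim signals raised to the filter), both with values that took part in the choice of genes, and the other 5 lie between the dashed lines.

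**Figure D3:**
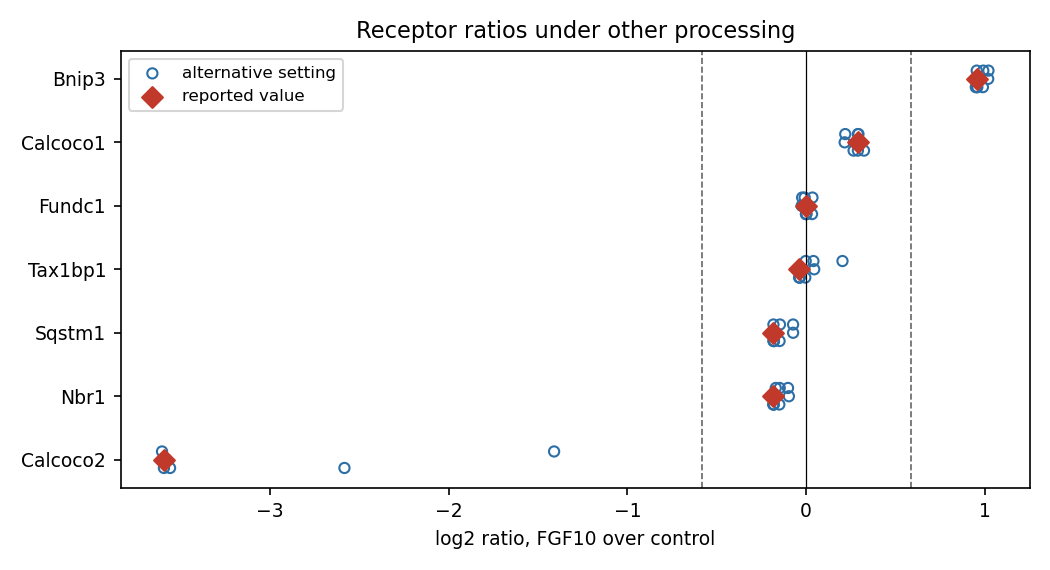
Log2 ratio of FGF10 over control for the 7 receptor genes as reported (red diamonds) and under each processing alternative that could be computed for the gene (blue circles). Dashed lines mark 1.5-fold. Bnip3 stays between 0.95 and 1.02, Calcoco2 spreads from -3.61 to -1.41, and Tax1bp1 and Fundc1 straddle 0.

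Probe sets of the same gene give the spread to hold these values against. Over the 5213 genes with at least 2 probe sets past the filter, the SD of a log2 ratio was 0.27, taken as the SD of the difference between the 2 brightest divided by the square root of 2. It covers error within these arrays and not variation between cultures. The ratios of Sqstm1, Nbr1, Tax1bp1 and Fundc1 were smaller than that SD, and Calcoco1 was slightly above it. The SD pools bright and dim genes, however. In the signal bin of Calcoco1 the log2 ratios of all probe sets had an SD of 0.42 around a median of 0.083, and its 0.29 lay inside that spread. Bnip3 and Calcoco2 are not held against it, since their values took part in the choice of genes.

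The Atg8 proteins that the receptors bind were close to even between the arrays. All 5 genes measured (Map1lc3a, Map1lc3b, Gabarap, Gabarapl1 and Gabarapl2) lay within 1.5-fold, with a median log2 ratio of -0.098. Map1lc3b, the most studied LC3 gene, read 9378.8 and 8549.8 (-0.17, with probe sets up to 0.23). Gabarapl2 was at -0.12 (0.21 on its other probe set), Gabarapl1 at 0.14 and Map1lc3a at 0.19. Of the 11 genes that process Atg8 proteins and join them to lipid, only Atg4c was past 1.5-fold on its brightest probe set, and the median was -0.061. Atg4c, a protease that trims Atg8 proteins, read 175.1 and 325.5 (0.86, and 0.19 on its other probe set). Atg4b was at 0.11, Atg16l1 at -0.40 and Atg4a at -0.44, with its other probe set (116.9 and 46.6) at -1.36. With probe sets averaged, the list had 0 higher and 1 lower.

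Genes that start the autophagic membrane were mixed. Past 1.5-fold were 2 of 20 upward and 1 downward, around a median log2 ratio of 0.036. The kinase gene Ulk2 read 151.7 and 245.4 (0.66, with 0.35 as the lowest of its 3 probe sets), and Atg9a, which encodes a lipid scramblase of the vesicles that seed the membrane, read 123.4 and 196.9 (0.64). Wipi1, which encodes a reader of membrane lipid, had 429.8 and 149.3 on its brightest probe set (-1.56), but its 4 probe sets past the filter ran from -1.56 to 0.80, so it has no settled direction. Wdr45b was at -0.42, and Rb1cc1 (FIP200), a scaffold that p62 binds, at 0.22 (-0.079 on its other probe set).

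Among kinases, ligases and partners that act on the receptors, 1 of 19 was past 1.5-fold upward and 1 downward, and the median was -0.11. Pink1, the kinase that marks damaged mitochondria by phosphorylating ubiquitin, read 229.2 in the control and 492.5 with FGF10 on its brightest probe set (1.07) and 284.1 and 395.2 on the other (0.44). Both probe sets were higher with FGF10, and the brightest is of the _s_at type, which can match transcripts of more than 1 gene. Tbk1, the kinase that phosphorylates Optn and p62, read 2541.2 and 2528.3 (-0.042). Pgam5, the phosphatase that acts on Fundc1, was at -0.12, and Keap1, which p62 sequesters, at 0.050 (-0.36 on its other probe set). Src, a kinase that phosphorylates Fundc1, was at -0.77 on 1 probe set and -0.040 on the other. Tnfaip3, a ubiquitin-editing enzyme that works with Tax1bp1, was at 0.47, and the ligase gene Traf6 at -0.53, with probe sets up to 0.95.

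Other receptors of selective autophagy, for the endoplasmic reticulum, ferritin, glycogen and mitochondria, differed little on their brightest probe sets. All 16 measured lay within 1.5-fold there, with a median of 0.0049. Dimmer probe sets past the filter went further for Atl3 (-0.76 to 0.14 over its 5) and Sec62 (-0.51 to 0.81 over its 5). The extremes were Ncoa4, the ferritin receptor (-0.33), and Fkbp8, a mitochondrial one (-0.25), against Nufip1 (0.18) and the large scaffold gene Wdfy3 (0.19).

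**Figure D4:**
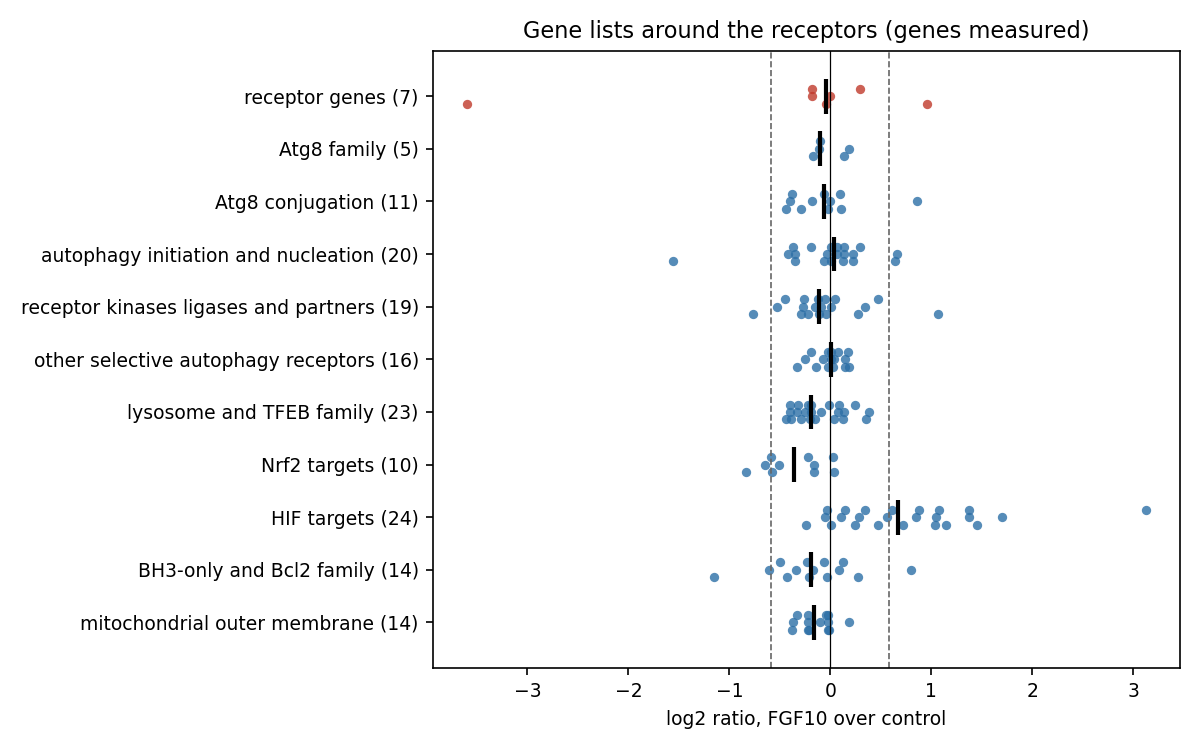
Log2 ratio of FGF10 over control for each gene measured in the receptor list (red) and in the 10 other gene lists described here (blue), with the number measured in parentheses. Black bars are medians and dashed lines mark 1.5-fold. The HIF targets spread to the right of the other lists, with 13 of 24 past 1.5-fold, and the Nrf2 targets lie lowest, with a median of -0.36.

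The HIF target genes are the list that Bnip3 belongs to by textbook knowledge. Without Bnip3, 13 of 24 measured were past 1.5-fold upward and 0 downward, around a median log2 ratio of 0.67. The list ran from -0.24 to 3.13. Bnip3 (0.96) was chosen with its value known, so its place in that range is no finding. Ndrg1 (3.13) and the glycolytic gene Aldoc (1.70) were the highest, and Pfkfb4 (-0.24) and Pkm (-0.049) the lowest. Promoter windows were taken for all 25 genes listed, including Car9, which was below the filter. Of these 34 windows 18 held ACGTG (52.9%), and 22.1% of the windows of all genes measured did. For the variant core these shares were 55.9% and 45.4%, and for CACGTG, the form in the Bnip3 window, 5.88% and 8.46%. Genes known as HIF targets are partly known by such letters, so the shares are a description only. The list was written down with earlier results of these arrays known, so it is no independent evidence of direction.

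The Nrf2 target genes lean the other way. Nrf2 is the stress factor that Keap1 holds down, p62 can release it by binding Keap1, and Sqstm1 is itself one of its targets. Of 10 genes measured, the gene for Nrf2 itself among them, 3 were past 1.5-fold downward and 0 upward, and the median was -0.36. The count of 3 was 2 with no centring, after loess scaling, with the offset and with the filter on both arrays. It was 1 with probe sets averaged and 1 with the filter at the 75th percentile. The 3 are Nqo1, a quinone reductase, Srxn1, which repairs oxidised peroxiredoxins, and Gclm, a subunit of the enzyme that starts glutathione synthesis. Nqo1 read 661.9 and 380.4 (-0.83). Srxn1 read 461.3 and 300.8 (-0.65, with a probe set at 0.19), and Gclm read 3926.5 and 2675.6 (-0.59), only just past 1.5-fold. Hmox1, at -0.58, fell just short of it. The gene for Nrf2 itself, Nfe2l2, was at 0.030, and Mgst1 at 0.035. Sqstm1, at -0.18, lay between these values.

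Lysosomal genes and the TFEB family, which make the compartment where the cargo is broken down, lay within 1.5-fold in all 23 genes measured, with a median of -0.19 (-0.13 after loess). Tfeb itself, the factor that drives many lysosomal genes, is not among the 23, since its signals of 48.6 and 79.5 average below the filter. The membrane protein gene Lamp2 was at -0.43, with probe sets up to -0.024, and the protease gene Ctsl at -0.40. Hexa (0.35) and Psap (0.38) were the highest.

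Markers of cell types moved between the arrays too. Pairs of values for a list are summed signals, and those for a gene its own signals, in the control and with FGF10. Of 8 pluripotency markers 3 were at least 1.5-fold lower (58138.7 and 49867). Dppa5a alone (17188.2 and 8648.7) fell by more than the sums did. Utf1 (log2 ratio -0.73) and Zfp42 (-0.71) were lower too, while Pou5f1 (0.073), Nanog (0.22), Sox2 (-0.0026) and Tdgf1 (0.0035) differed little. Of 7 primitive streak markers all 7 were higher (3459.3 and 16350.4). Of 7 visceral endoderm markers 4 were lower (8342 and 5567.5), and every gene of these 3 lists passed the filter. Fibroblast or feeder markers were dim, with 2 of 7 past the filter (600 and 452.1) and Col1a1 at no more than 9.4 on either array. Sums include genes below the filter. Trophoblast (406 and 628), neural (616.6 and 612.5) and cardiac muscle (459.7 and 414.9) markers each had 2 genes past the filter. For trophoblast, Tfap2c read 122.6 and 396.6 and Krt7 117.7 and 103. The neural sum is mostly Nes (452.1 and 554.9), while Pax6 was lower (101.2 and 53.6, log2 ratio -0.95). Below the filter, Sox1 (40.7 and 2.4 on its brighter probe set) and Neurog2 (22.6 and 1.6) were lower too. In such bulk RNA, fewer cells of a type and less RNA per cell cannot be told apart, and the part of these markers in the receptor values was not tested.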

How the data were processed

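The authors deposited linear MAS5 signal (named in the submitters' processing notes, with no version). Their settings, detection calls and genome build are not given in the sources used here. Both columns have a mean of 500.003 without the lowest and highest 2%, so each array appears scaled to a common target, and a ratio says how a gene moved against its array as a whole. Columns left unused: 0.

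A probe set took its gene from the platform annotation where that gives 1 gene (34945 of 45037 that are not chip controls, with 932 naming several genes and 9160 none). The log2 ratio had no offset and was centred by 0.034, the median of the 22524 probe sets that passed the filter, of which 19966 name 1 gene. Differences were counted at 1.5-fold with no test. The number of arrays, 1 in each group, limits the precision. Python 3.11.15, numpy 2.4.6, pandas 2.3.3 and statsmodels 0.14.6 (loess) were used, and the steps were tested on simulated data.

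Every member with a probe set is described. Of each other list, the genes named are the 2 highest and 2 lowest, direct partners of the receptors, and a few chosen after their values were seen. The members and lists were chosen with earlier results of these data known. Promoter windows are from RefSeq (GRCm38.p6). The alternatives tried were centring, quantile and loess scaling, an offset, other signal filters, raising dim signals, averaging probe sets, dropping the _x_at and _s_at types, and a 2-fold threshold.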

Additional observations from a re-analysis of the deposited data

How the results depend on the processing

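No paired analysis was possible because each group has 1 array. The count of receptor genes 1.5-fold higher (1) was 0 at a 2-fold threshold, where Bnip3 at 0.96 falls just short. The count lower (1) was 0 with the filter at the 75th percentile or on both arrays, each of which leaves Calcoco2 out. Over 156 genes of the other lists, 18 were higher and 7 lower, and the latter was 1 with the filter at the 75th percentile and 3 with probe sets averaged. Over all genes, 602 higher and 540 lower became 2516 and 2895 with no filter, 236 and 94 at the 75th percentile, and 147 and 144 at 2-fold. Bnip3 ran from 0.95 to 1.02 over 10 alternatives. Calcoco2 ran from -3.61 to -1.41 over 8, at -2.58 with the offset. Calcoco1 ran from 0.22 to 0.32 over 9, and Sqstm1 (-0.18 to -0.073) and Nbr1 (-0.18 to -0.096) kept their sign over 10. The sign of Tax1bp1 turned in 3 of 10 alternatives (-0.039 to 0.20). Fundc1 turned sign or reached 0 in 5 (-0.025 to 0.036), with 0.0000 under the offset. The median of the Nrf2 targets ran from -0.49 to -0.18 and that of the HIF targets from 0.62 to 0.78. Near 0, the median of the Atg8 family turned from -0.098 to 0.045 with probe sets averaged, that of the initiation genes from 0.036 to -0.018 with quantile and -0.015 with loess scaling, and that of the Atg8 conjugation genes reached -0.25 at the 75th percentile.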

Other observations

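Genes of cell death and of the mitochondrial surface, where Bnip3 and Fundc1 reside, were not described above. Of 14 genes of the Bcl2 family and its BH3-only members, 1 was past 1.5-fold upward and 2 downward, around a median log2 ratio of -0.19. Bcl2l11 (Bim), a death inducer, read 1315.4 in the control and 2344.3 with FGF10 (0.80), with its 5 probe sets between 0.031 and 0.80. Bad read 477.9 and 220.3 (-1.15, and -0.032 on its other probe set), Bid was at -0.60 with probe sets up to 0.026, and Bcl2 was at 0.27. The probe sets of these genes thus disagree in size.

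All 14 genes of the mitochondrial outer membrane and its fission and fusion machinery lay within 1.5-fold, and 13 of them were below 0 (median -0.16). After loess correction for signal the median was -0.0033, and after quantile scaling -0.019. The import receptor genes Tomm22 (-0.38) and Tomm20 (-0.37) were the lowest, the latter with signals of 31786.9 and 25184.5 and other probe sets up to 0.12. Mfn1 (0.18, and -0.14 on its other probe set), a fusion protein, and the import pore gene Tomm40 (-0.011) were the highest.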
